A study of Mus musculus with 6 samples.

Results

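Interferon-stimulated genes are the antiviral and regulatory genes that cells switch on when an interferon binds its receptor. A set of 40 such genes was followed here, chosen by name from the table of all genes, and each of the 40 was found on a single identifier among 55401 genes in all. They comprised 26 genes of the effector class, which type I interferon induces, 5 sensors of foreign nucleic acid, 3 transcription factors of the STAT and IRF families, and 6 GTPases of the guanylate-binding and immunity-related families. RNA had been sequenced from mouse bone marrow-derived macrophages, cells grown out of bone marrow with M-CSF, the growth factor that drives macrophage differentiation. Both groups received M-CSF, and the labels name no interferon, infection or other stimulus. In 3 libraries the genotype was Lamtor5 knockdown and in 3 it was WT. Lamtor5, also called HBXIP, encodes a subunit of the Ragulator complex, which holds the nutrient-sensing kinase mTORC1 at the lysosome. The series names the line HBXIPΔLysM. LysM is a name of Lyz2, a gene of the myeloid lineage, and in widely used LysM-Cre mice the recombinase is inserted into that gene. Whether the WT animals carried a Cre or a modified Lamtor5 allele, and the animals' age, are not given in the labels.

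Type I interferons, chiefly interferon beta and the interferon alphas, signal through the receptor IFNAR1/IFNAR2 and the kinases JAK1 and TYK2. The signal assembles the complex ISGF3, which contains STAT2 and IRF9, and ISGF3 binds interferon-stimulated response elements in promoters. Interferon gamma uses another receptor and acts through GAS elements, and several guanylate-binding and immunity-related GTPases are classical targets of that arm. Macrophages are known to keep a low tonic interferon signal in culture, which sets a resting level of many of these genes.

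Sequencing gave 26.0 to 28.0 M read pairs per library, and the estimated counts summed to between 75.8 and 83.2 M. Lamtor5 was at 25.5, 27.1 and 24.8 FPKM (fragments per kilobase of transcript, scaled to library size) in knockdown libraries 1 to 3 and at 55.9, 54.5 and 56.2 FPKM in WT libraries 1 to 3, so the groups matched their labels in the targeted gene. Knockdown library 3 stood apart from the others in Lyz2, at 73.6 FPKM against 11356 and 10650 FPKM in knockdown libraries 1 and 2 and 22454 to 29379 FPKM in WT. It carried the same genotype label as libraries 1 and 2 and a like Lamtor5 level, and whether its cells differed from theirs in another way, genotype included, was not tested. The counts of members and the class medians are therefore also given without it. The macrophage markers Adgre1 and Csf1r were present in every library, at 62.7 to 73.5 and 159.9 to 223.0 FPKM in the knockdown and 107.2 to 166.2 and 347.1 to 541.4 FPKM in WT. Of 14 macrophage markers tested, 9 fell and 1, Cd68, rose, against 6.46% and 4.87% of all genes. Their summed level was 13287, 12456 and 2060 FPKM in the knockdown and 31647, 26829 and 24366 FPKM in WT, most of it Lyz2. Without Lyz2 the sums were 1930, 1806 and 1986 FPKM against 2268, 2087 and 1912 FPKM, and the groups overlapped. Cd68, the marker that rose, was the largest part of these sums. It was at 1402, 1273 and 1571 FPKM in the knockdown against 937.9, 930.2 and 971.2 FPKM in WT. In 12 of the 15 markers listed every knockdown library was below every WT library, and in 2 above (all genes 21.3% and 16.3%). Without knockdown library 3, 4 of the markers fell and 1 rose (all genes 2.17% and 1.98%). Without WT library 2 none of these markers passed, and edgeR called no gene in the whole table. Timd4 was at 0 in every library. In bulk RNA, fewer cells of a type and less RNA per cell cannot be told apart. No label ties a library to its own animal or culture. The p-values below therefore reflect the variation among 3 libraries of each group, and that variation may be technical.

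Promoter sequence is shown first, because many of these genes are known to share an element there. A window of 250 bases before and 50 bases after the start, from RefSeq (GRCm38.p6), was found for 31 of the 40 members. The core of the interferon-stimulated response element, which is GAAA, then any 2 bases, then GAAA again, was searched on both strands, and overlapping copies were counted. It was found in 19 of the 31 windows (61.3%), against 3.44% of 32851 windows of the same length over all genes. The GAS letters TTCNNNGAA were found in 8 of 31 windows (25.8%), against 8.3% of all windows. Below are the stretches upstream of the start of the 4 members with the smallest p-values in the knockdown comparison that had a window (Cmpk2, Samd9l, Ifitm3 and Cxcl10), of the 2 most abundant members that did not pass the test (Bst2 and Oas1a), and a shorter stretch of Ifit1, added after its values were seen because it carries 2 copies. Each is written 5′ to 3′ on the gene's strand, and capitals mark the response element core, which has TTTC in place of GAAA where it lies on the other strand.
Cmpk2, chr12:26468965-26469214, plus strand: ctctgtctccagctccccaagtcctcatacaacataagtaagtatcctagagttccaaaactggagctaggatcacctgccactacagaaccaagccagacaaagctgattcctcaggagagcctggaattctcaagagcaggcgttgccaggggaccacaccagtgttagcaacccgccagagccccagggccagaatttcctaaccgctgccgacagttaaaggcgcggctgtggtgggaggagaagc
Samd9l, chr6:3399572-3399821, minus strand: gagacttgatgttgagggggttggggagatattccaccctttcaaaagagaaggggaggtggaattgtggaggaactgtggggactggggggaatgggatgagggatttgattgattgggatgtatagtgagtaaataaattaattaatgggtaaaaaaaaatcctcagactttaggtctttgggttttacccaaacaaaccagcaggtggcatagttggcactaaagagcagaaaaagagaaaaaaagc
Ifitm3, chr7:141010745-141010994, minus strand: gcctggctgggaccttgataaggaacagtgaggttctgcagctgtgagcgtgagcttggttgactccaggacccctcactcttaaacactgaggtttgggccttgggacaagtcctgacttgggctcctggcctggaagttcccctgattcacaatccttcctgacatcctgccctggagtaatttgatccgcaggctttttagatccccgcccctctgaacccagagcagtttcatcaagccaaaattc
Cxcl10, chr5:92348890-92349139, minus strand: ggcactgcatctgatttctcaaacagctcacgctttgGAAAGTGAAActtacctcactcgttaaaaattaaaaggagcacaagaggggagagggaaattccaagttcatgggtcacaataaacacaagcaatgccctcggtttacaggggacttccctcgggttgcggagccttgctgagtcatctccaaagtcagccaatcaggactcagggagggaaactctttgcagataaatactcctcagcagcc
Bst2, chr8:71537473-71537722, minus strand: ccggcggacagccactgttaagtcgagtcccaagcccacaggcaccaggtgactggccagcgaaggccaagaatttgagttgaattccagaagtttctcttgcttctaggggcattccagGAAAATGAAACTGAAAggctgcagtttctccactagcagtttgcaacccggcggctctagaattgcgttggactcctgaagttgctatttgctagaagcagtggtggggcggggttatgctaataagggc
Oas1a, chr5:120907526-120907775, minus strand: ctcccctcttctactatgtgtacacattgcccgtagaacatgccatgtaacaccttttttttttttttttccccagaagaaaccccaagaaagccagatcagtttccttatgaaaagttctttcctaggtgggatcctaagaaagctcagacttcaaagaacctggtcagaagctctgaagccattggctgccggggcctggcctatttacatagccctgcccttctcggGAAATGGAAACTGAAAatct
Ifit1, chr19:34640769-34640828, plus strand: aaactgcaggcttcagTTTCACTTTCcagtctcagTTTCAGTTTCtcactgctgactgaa

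The Cxcl10 stretch held 1 core, beginning 213 bases before the start. In Bst2 and in Oas1a a pair of cores overlapped, beginning at -130 and -124 in Bst2 and at -20 and -14 in Oas1a. The GAS letters at -136 of Bst2 overlapped the first of its cores. Ifit1 carried its cores at -104 and -85, both on the other strand. In Ifitm3 the letters lay just after the start, at 3 and 20, and are not in the stretch printed. No match was found in the windows of Cmpk2 and Samd9l, which says only that these letters are not within 300 bases. Among members that fell in the knockdown, 3 of 6 windows held the core (50%), and among those that did not pass the test 16 of 25 did (64.0%). By class the core was found in 11 of 20 effector windows, 2 of 2 sensor windows, 1 of 3 windows of the STAT and IRF factors and 5 of 6 GTPase windows.

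As a group the interferon-stimulated genes were lower in the Lamtor5 knockdown. By edgeR's quasi-likelihood test with Benjamini-Hochberg adjustment over 18164 genes, 10 of the 40 members fell, against 6.46% of all genes tested. No member rose (all genes 4.87%), and 30 did not pass the threshold of 0.05. At an unadjusted p under 0.05, 24 members were lower (all genes 15.7%) and 1, Bst2, was higher (all genes 14.5%). DESeq2 called 23 members lower (all genes 12.3%) and 0 higher (all genes 10.6%). Limma on log2(FPKM + 1) called 11 of 34 members lower (all genes 10.3%) and 0 higher (all genes 6.31%). The log2 fold change, knockdown against WT, was below 0 for 37 of 40 members, against 48.5% of all genes, and its median was -0.76, against 0.02 over all genes. In 26 members every knockdown library was below every WT library in FPKM (all genes 21.3%). Only in Bst2 was every knockdown library above every WT library (all genes 16.3%), and in 13 members the groups overlapped.

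**Figure D1:**
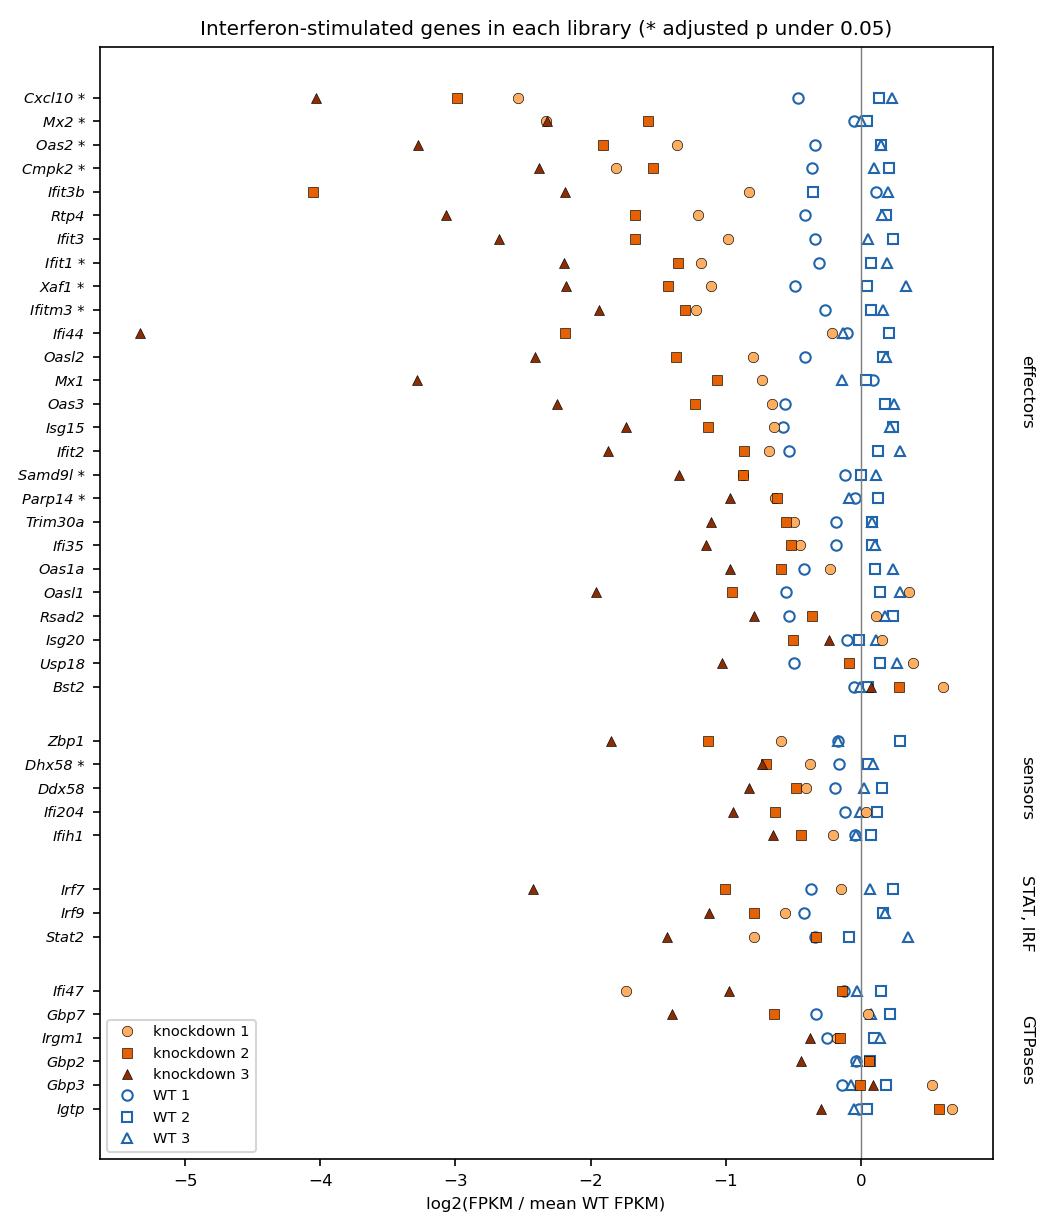
Each row is 1 member and each point 1 library, placed by the log2 of its FPKM over the mean WT FPKM; filled orange symbols are knockdown and open blue symbols WT, and an asterisk marks the 10 members past an adjusted p of 0.05. The dark triangles of knockdown library 3 are the lowest of their group in 35 of 40 members, and most GTPases lie around 0.

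The libraries of the knockdown were ordered alike in most members. Knockdown library 3 was the lowest of its group in 35 of 40 members and library 1 the highest in 33. Relative to the WT mean, the median member was at -0.48, -0.80 and -1.31 on the log2 scale in knockdown libraries 1, 2 and 3. In WT the same medians were -0.22, 0.12 and 0.10, and library 1 was the lowest of its group in 34 members. All knockdown libraries were thus below all WT libraries in this median, while the median over all genes was between 0.00 and 0.02 in each. Within the knockdown the highest library exceeded the lowest by a median of 2.0 times over the members, against 1.36 times over all genes. Within WT the corresponding ratios were 1.39 and 1.37.

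Without knockdown library 3, 9 members were lower (all genes 2.17%), and 8 of the 10 above were among them. Igtp then passed as higher (all genes 1.98%). The median log2 fold change was -0.60 without that library. Without WT library 2, edgeR called no gene in the whole table, members included. Without that library 19 members were lower at an unadjusted p under 0.05 (all genes 11.2%). DESeq2 then called 12 lower (all genes 7.49%), and the edgeR median was -0.72.

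The effectors, 26 of the 40 members, held 9 of the 10 members that fell (all genes 6.46%). Their median log2 fold change was -1.23 (-0.83 without knockdown library 3), over a range from -2.96 to 0.39. In 20 of 26 the groups did not overlap with the knockdown below (all genes 21.3%). Summed over the class, the level was 762.8, 668.7 and 466.0 FPKM in the knockdown and 1094, 1386 and 1447 FPKM in WT, of which Ifitm3 made up the greater part.

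Cxcl10 (ENSMUSG00000034855, chr5:92346638-92348882) encodes the chemokine that draws activated T cells through CXCR3. Its level was 0.263, 0.193 and 0.0934 FPKM in knockdown libraries 1 to 3 and 1.11, 1.68 and 1.79 FPKM in WT libraries 1 to 3. All knockdown libraries were far below the lowest WT library, and the change was the largest of the members, at -2.96 ± 0.43 on the log2 scale (SE, adjusted p = 0.0141). The gene rested on 19 to 57 estimated counts per knockdown library and 236 to 376 per WT library, with about 3 counts per read pair.

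Among the Mx GTPases, which trap viral nucleocapsids, Mx2 (ENSMUSG00000023341, chr16:97535308-97560900) fell. It was at 0.186, 0.314 and 0.187 FPKM in the knockdown and 0.905, 0.967 and 0.934 FPKM in WT, with little spread in WT and a log2 fold change of -1.96 ± 0.26 (adjusted p = 0.012). Its neighbour Mx1 had a similar WT level, 0.904 ± 0.0749 FPKM (SD, n = 3). In the knockdown Mx1 spread from 0.093 to 0.543 FPKM, and it did not pass the test (-1.28 ± 0.56, adjusted p = 0.177).

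Cmpk2 (ENSMUSG00000020638, chr12:26469204-26479837), a mitochondrial nucleotide kinase, lies next to Rsad2, which encodes the antiviral enzyme viperin. Cmpk2 was at 0.844, 1.02 and 0.569 FPKM in the knockdown and 2.31, 3.43 and 3.18 FPKM in WT, with no overlap (-1.83 ± 0.24, adjusted p = 0.0121). Rsad2 was at 3.75, 2.7 and 2.01 FPKM against 2.4, 4.1 and 3.93 FPKM, and its groups overlapped (-0.25 ± 0.28, adjusted p = 0.608). The level of Rsad2 per Cmpk2 was 4.44, 2.65 and 3.53 in the knockdown libraries and 1.04, 1.2 and 1.24 in the WT libraries. This pair and 4 others below were chosen after their values were seen. An exact two-sided permutation test of the ratio gave p = 0.1 for 4 of the 5 pairs and 0.7 for Mx1 per Mx2. After Benjamini-Hochberg adjustment these were 0.125 and 0.7. With 3 against 3 libraries 0.1 is the smallest p possible, so no pair could have passed the threshold whatever its values. The test therefore cannot decide whether any of these ratios differed between the groups.

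Ifitm3 (ENSMUSG00000025492, chr7:141009586-141010770), a membrane protein that blocks viral fusion in endosomes, was the most abundant member. It was at 406.4, 384.8 and 247.6 FPKM in the knockdown and 785.7, 998.3 and 1058 FPKM in WT. The highest knockdown library lay well under the lowest WT library, and the log2 fold change was -1.40 ± 0.20 (adjusted p = 0.0136). Bst2, or tetherin, which holds budding virions on the cell surface, was the next most abundant and moved the other way, at 189.9, 150.9 and 131.0 FPKM against 120.3, 129.2 and 123.9 FPKM. Every knockdown library of Bst2 was above WT, knockdown library 3 only narrowly, and the difference did not pass the test over all genes (0.39 ± 0.14, unadjusted p = 0.0296, adjusted p = 0.122).

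Samd9l (ENSMUSG00000047735, chr6:3372257-3399572) restricts poxviruses and was at 9.18, 9.15 and 6.6 FPKM in the knockdown against 15.5, 16.8 and 18.1 FPKM in WT. The groups were well apart, and the log2 fold change was -0.96 ± 0.14 (adjusted p = 0.0135). Parp14 (ENSMUSG00000034422, chr16:35832874-35871544), a mono-ADP-ribosyltransferase, was at 8.7, 8.76 and 6.89 FPKM against 13.1, 14.7 and 12.7 FPKM. It had the smallest change of the effectors that fell, with a small spread in both groups (-0.69 ± 0.11, adjusted p = 0.0165). Xaf1 (ENSMUSG00000040483, chr11:72301629-72313733), which binds the apoptosis inhibitor XIAP, was at 1.61, 1.29 and 0.763 FPKM against 2.47, 3.57 and 4.37 FPKM. Both groups of Xaf1 were spread but did not overlap (-1.45 ± 0.32, adjusted p = 0.0338).

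**Figure D2:**
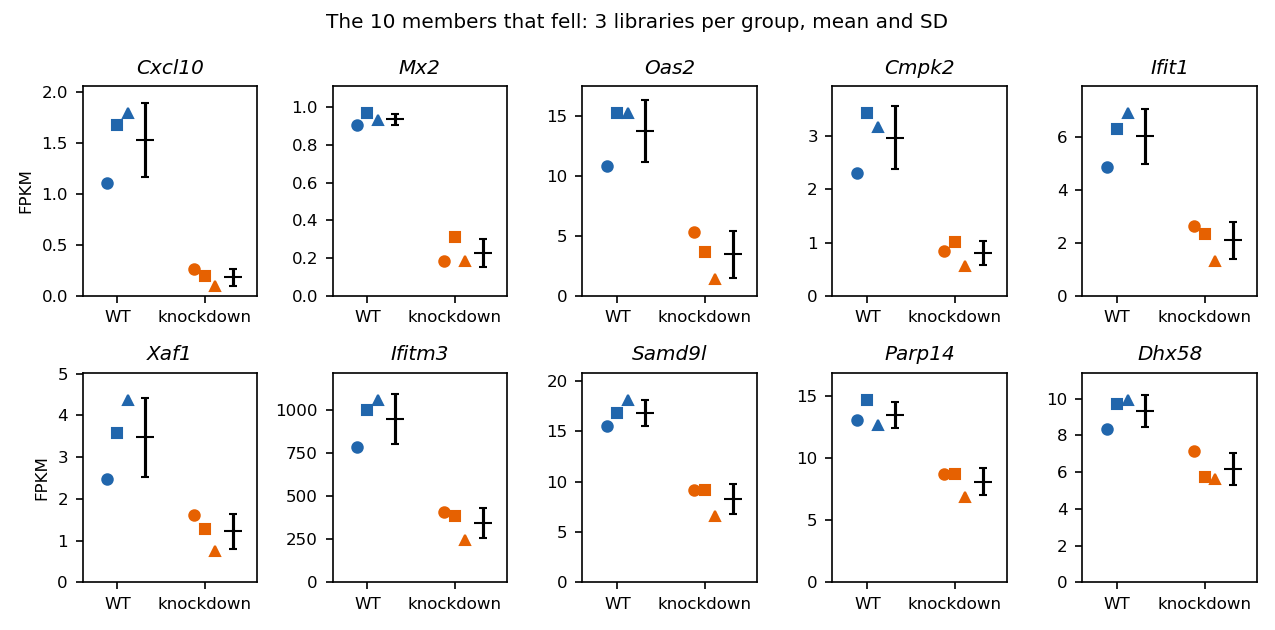
FPKM of the 10 members that fell, on linear axes from 0, with 1 point per library (circle, square and triangle for libraries 1, 2 and 3) and the mean with its SD in black. In each panel every orange knockdown point is below every blue WT point, and in 9 of the 10, Mx2 excepted, the lowest knockdown point is library 3.

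The Ifit genes encode proteins that bind foreign RNA ends and curb its translation, and 4 of them lie within 99.3 kb on chromosome 19. Ifit1 (ENSMUSG00000034459, chr19:34640871-34650009) fell, from 4.85, 6.31 and 6.88 FPKM in WT to 2.64, 2.35 and 1.31 FPKM in the knockdown (-1.47 ± 0.27, adjusted p = 0.0229). In Ifit2, Ifit3 and Ifit3b every knockdown library was likewise below every WT library, but none passed, with log2 fold changes of -1.0, -1.57 and -1.76 and adjusted p of 0.0991, 0.0545 and 0.149. Ifit3b was at 0.641, 0.0687 and 0.25 FPKM against 1.23, 0.89 and 1.31 FPKM. It had the largest change of the effectors not past the threshold and the widest knockdown spread of this family. Ifit3 and Ifit3b share 31.7% and 27.4% of their 100-base windows with each other, so their split is uncertain. The level of Ifit2 per Ifit1 was 1.09, 1.08 and 0.961 in the knockdown and 0.659, 0.8 and 0.818 in WT.

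The OAS enzymes make the messenger that activates RNase L, and the OAS-like genes Oasl1 and Oasl2 were grouped with them. Oas2 (ENSMUSG00000032690, chr5:120730333-120749853) was at 5.32, 3.65 and 1.41 FPKM in the knockdown and 10.8, 15.2 and 15.2 FPKM in WT. It fell with no overlap, although the knockdown libraries differed among themselves (-1.93 ± 0.44, adjusted p = 0.0388). Oas3 and Oas1a, within 177.2 kb of it, had log2 fold changes of -1.18 and -0.51 and did not pass (adjusted p = 0.101 and 0.187). Oas1a was the most abundant of the 5, at 40.2, 31.3 and 24.1 FPKM against 35.1, 50.7 and 55.4 FPKM, and its groups overlapped. It shares 40.9% of its 100-base windows with Oas1g. Oasl2 did not pass at -1.33 (adjusted p = 0.0704), nor did its neighbour Oasl1 at -0.49 (adjusted p = 0.608). Oasl1 per Oasl2 was 0.505, 0.303 and 0.311 in the knockdown and 0.206, 0.224 and 0.244 in WT.

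Isg15, a ubiquitin-like modifier, and Usp18, the protease that removes it and also damps the receptor, were set side by side. Isg15 was at 11.6, 8.24 and 5.43 FPKM in the knockdown and 12.1, 21.3 and 21 FPKM in WT. Its groups were separate by a narrow gap between knockdown library 1 and WT library 1 (-1.05 ± 0.33, adjusted p = 0.0838). Usp18 was at 17.9, 12.9 and 6.71 FPKM against 9.7, 15.1 and 16.5 FPKM. Its groups overlapped, with knockdown library 1 above WT and library 3 below it (-0.08 ± 0.36, adjusted p = 0.899). Usp18 per Isg15 was 1.55, 1.56 and 1.24 in the knockdown and 0.799, 0.707 and 0.785 in WT. In the fifth pair, Mx1 per Mx2, the groups overlapped, at 2.92, 1.38 and 0.498 against 1.06, 0.961 and 0.877.

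Rtp4, a chaperone of surface receptors, was closest to the threshold among the effectors that did not pass. It was at 3.26, 2.36 and 0.894 FPKM against 5.62, 8.55 and 8.37 FPKM, with no overlap (-1.73 ± 0.44, adjusted p = 0.0515). Rtp4 passed without knockdown library 3 (adjusted p = 0.0492). Ifi44 had estimated counts of 267, 64 and 8 in the knockdown libraries and 291, 363 and 286 in WT, and its wide spread left -1.37 ± 0.95 (adjusted p = 0.386). Trim30a, Ifi35 and Isg20 had log2 fold changes of -0.64, -0.63 and -0.11, with adjusted p of 0.052, 0.0768 and 0.771.

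The calls of the effectors differed in how far they rested on single libraries. Without WT library 2 edgeR called no gene in the whole table. Mx2, Ifitm3, Samd9l, Parp14 and Cxcl10 lost their call only there, with adjusted p from 0.0644 to 0.0778. Cmpk2 lost it without WT library 2 (0.0644) and without knockdown library 1, where it came to 0.05 after rounding, just above the threshold. Ifit1 lost it without knockdown library 1 or 2 or WT library 2 or 3 (0.0518 to 0.0906). Oas2 kept it only without knockdown library 3, with 0.0508 to 0.123 elsewhere, and Xaf1 only without WT library 1, with 0.0571 to 0.113 elsewhere. Every one of these fits had a log2 fold change below 0.

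Among the 5 sensors, Dhx58 alone fell by edgeR (all genes 6.46%). At an unadjusted p under 0.05, 4 were lower (all genes 15.7%). DESeq2 called 3 lower, namely Dhx58, Ddx58 and Zbp1 (all genes 12.3%). All 5 log2 fold changes were below 0, with a median of -0.51 (-0.40 without knockdown library 3). In 4 of the 5 every knockdown library was below every WT library (all genes 21.3%). Dhx58 (ENSMUSG00000017830, chr11:100694884-100704271) encodes LGP2, the regulatory member of the RIG-I-like helicases. It was at 7.16, 5.72 and 5.6 FPKM in the knockdown and 8.34, 9.68 and 9.93 FPKM in WT. The groups were separate with a small gap, and the log2 fold change was -0.54 ± 0.14 (adjusted p = 0.0493). This call was the nearest to the threshold of the 10 and was lost without any of the 6 libraries, at adjusted p of 0.051 to 0.155.

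The signalling helicases of that family did not pass edgeR's test. Ddx58, which encodes RIG-I, was at 7.05, 6.69 and 5.25 FPKM against 8.16, 10.4 and 9.46 FPKM (-0.51 ± 0.14, adjusted p = 0.056). Ifih1, which encodes MDA5, was at -0.37 ± 0.13 (adjusted p = 0.109). Zbp1, the sensor of Z-form nucleic acid that starts necroptosis, had the largest change of the class, at 2.56, 1.76 and 1.07 FPKM against 3.43, 4.72 and 3.43 FPKM (-1.05 ± 0.32, adjusted p = 0.0787). Ifi204, a DNA-binding protein of the HIN-200 family, was the most abundant sensor that did not pass, at 10.1, 6.34 and 5.11 FPKM against 9.08, 10.7 and 9.79 FPKM. Its groups overlapped through knockdown library 1 (-0.40 ± 0.25, adjusted p = 0.331), and it shares 16.8% of its 100-base windows with Ifi211 and Mndal.

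None of the 3 STAT and IRF factors passed edgeR's test. At an unadjusted p under 0.05, 2 were lower (all genes 15.7%), and DESeq2 called both (all genes 12.3%). The log2 fold changes of the 3 factors were close together, from -0.86 to -0.74, with a median of -0.75 (-0.51 without knockdown library 3). Irf9, the DNA-binding subunit of ISGF3, was at 6.46, 5.52 and 4.37 FPKM in the knockdown and 7.11, 10.7 and 10.8 FPKM in WT. Its groups did not overlap (-0.75 ± 0.20, adjusted p = 0.057), and it passed without WT library 1 (0.0268). Stat2, the other subunit specific to type I and type III signalling, was at 4.86, 6.69 and 3.12 FPKM against 6.66, 7.94 and 10.7 FPKM, and knockdown library 2 just exceeded WT library 1 (-0.74 ± 0.28, adjusted p = 0.129). Irf7, which amplifies interferon alpha production, was at 4.38, 2.42 and 0.9 FPKM against 3.76, 5.72 and 5.08 FPKM. It varied most within the knockdown, and its groups overlapped (-0.86 ± 0.51, adjusted p = 0.308). Irf7 overlaps Phrf1 on the opposite strand and Irf9 overlaps Rnf31, and the sources used here do not state the strand setting of the counting.

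The 6 GTPases stood near the level of WT as a class. By edgeR none passed, none had an unadjusted p under 0.05, and neither DESeq2 nor limma called any. Their median log2 fold change was -0.11 (-0.01 without knockdown library 3), with a range from -0.77 to 0.43 and a smallest adjusted p of 0.187. Whether this differs from the effectors' median of -1.23 was not tested. Igtp, or Irgm3, was the most abundant, at 16.1, 15.1 and 8.22 FPKM in the knockdown against 10, 10.4 and 9.75 FPKM in WT. Knockdown libraries 1 and 2 were above WT and library 3 below it (0.43 ± 0.24, adjusted p = 0.277), and without library 3 Igtp passed as higher (0.67, adjusted p = 0.0357). It overlaps Irgm2 and shares 5.67% of its 100-base windows with it. Ifi47, or Irg47, was at 2.68, 8.09 and 4.53 FPKM against 8.17, 9.88 and 8.76 FPKM, all knockdown libraries being below WT, library 2 narrowly (-0.77 ± 0.35, adjusted p = 0.187). Without knockdown library 2 Ifi47 passed as lower (-1.23, adjusted p = 0.0456). Irgm1, a regulator of the immunity-related GTPases, was at -0.18 ± 0.11 (adjusted p = 0.331).

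The 3 guanylate-binding proteins, which coat pathogen membranes, are neighbours within 107.7 kb on chromosome 3. Gbp2 was at 5.25, 5.27 and 3.72 FPKM in the knockdown against 4.91, 5.3 and 4.95 FPKM in WT. Its groups overlapped, with knockdown library 3 below WT (-0.04 ± 0.15, adjusted p = 0.883). Gbp7 was at 0.562, 0.347 and 0.206 FPKM against 0.43, 0.629 and 0.571 FPKM, with knockdown library 1 inside the WT range (-0.49 ± 0.38, adjusted p = 0.437). Gbp3 was at 0.28 ± 0.20 (adjusted p = 0.411).

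**Figure D3:**
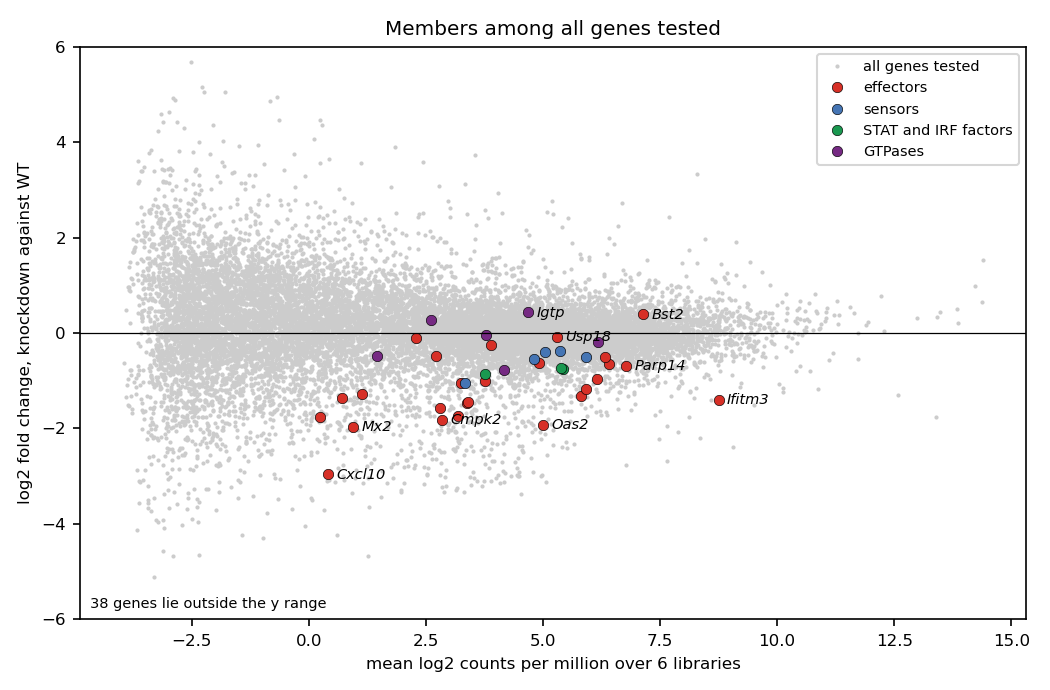
Log2 fold change, knockdown against WT, plotted over mean log2 CPM (counts scaled to library size) for the 18164 genes tested (grey, 38 of them outside the vertical range) and the 40 members (coloured by class, some named). Effectors lie mostly below the line at 0 from the low Cxcl10 to the abundant Ifitm3, with Bst2 above it, and the GTPases lie around it.

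Upstream of these genes, the ligands were barely detected and most of the receptor pathway did not pass the test. Of 21 interferon genes, 17, Ifnb1 and Ifng among them, had no count in any library, and none had counts enough to be tested. Of 11 receptor and JAK-STAT genes, 1 passed by edgeR, and it was higher in the knockdown. Ifnlr1, a chain of the receptor for interferon lambda, rose from 0.072, 0.152 and 0.106 FPKM in WT to 0.241, 0.49 and 0.496 FPKM in the knockdown (1.92 ± 0.41, adjusted p = 0.0322). Its level was low in all 6 libraries, and the call was lost without any of the 6 libraries (adjusted p = 0.0518 to 0.104). Ifnar1 and Ifnar2 had log2 fold changes of -0.28 and 0.20 (adjusted p = 0.393 and 0.136).

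A list of other interferon-stimulated effectors had 72 names, of which 64 were tested. By edgeR 10 of these fell (all genes 6.46%) and 0 rose (all genes 4.87%), and the median log2 fold change was -0.50. At an unadjusted p under 0.05, 37 were lower (all genes 15.7%) and 2 higher (all genes 14.5%). DESeq2 called 28 lower (all genes 12.3%) and 0 higher (all genes 10.6%). The smallest p-values belonged to Sp100, a nuclear body protein (-0.72, adjusted p = 0.0164), Parp12, an ADP-ribosyltransferase (-0.76, adjusted p = 0.0182), Psmb10, an immunoproteasome subunit (-0.82, adjusted p = 0.0184), and Rnf213, a large ubiquitin ligase (-0.96, adjusted p = 0.0196). Without knockdown library 3 the count was 4 (all genes 2.17%) and the median -0.39, and each of the 4 genes named lost its call without WT library 2 and at least 1 further library (adjusted p up to 0.0837). Of 12 further guanylate-binding and immunity-related GTPases tested, only Gbp9 fell, from 0.988, 1.47 and 1.57 FPKM in WT to 0.274, 0.536 and 0.218 FPKM (-1.92, adjusted p = 0.0228). That call was lost without knockdown library 1 or 3 or WT library 2 or 3. The median of that list was -0.02, and 0.21 without knockdown library 3.

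The shorter lists held 1 or 2 calls in a direction, and among all genes 6.46% fell and 4.87% rose, so their counts are given to name the genes and not as results about the lists. Among genes responsive to interferon gamma, 1 of 11 tested fell and 1 rose. Fcgr1, the high-affinity IgG receptor and also a macrophage marker, fell (-2.11, adjusted p = 0.0205), and Cd274, which encodes PD-L1, rose (1.17, adjusted p = 0.0114). Of 9 other interferon regulatory factors and proteins that bind them, Irf5 and Irf2bp2, the latter a binding partner of IRF2, fell, by 0.64 and 0.32 on the log2 scale (adjusted p = 0.0274 and 0.0477). Of 22 adaptors and kinases of nucleic acid sensing, Adar, which edits double-stranded RNA, and Samhd1, which depletes nucleotides, fell by 0.62 and 0.54 (adjusted p = 0.0114 and 0.0196). Of 18 negative regulators, Ptpn6 and Pias3 fell by 0.67 and 0.70 (adjusted p = 0.0103 and 0.0237), and Atg12 rose by 0.68 (adjusted p = 0.0165). Without knockdown library 3, 0 of these 9 and 1 of the 22 adaptors were called lower, and of the negative regulators 1 was called lower and 1 higher. Irf5 and Irf2bp2 lost their call without any of the 6 libraries. Fcgr1 lost it without knockdown library 2 or WT library 2, and Cd274, Adar and Ptpn6 only without WT library 2. Samhd1 and Pias3 lost it also without knockdown library 1 or 3, and Pias3 and Atg12 also without WT library 3, Atg12 besides without knockdown library 1. By edgeR no gene of these lists, nor of the whole table, passed without WT library 2.

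**Figure D4:**
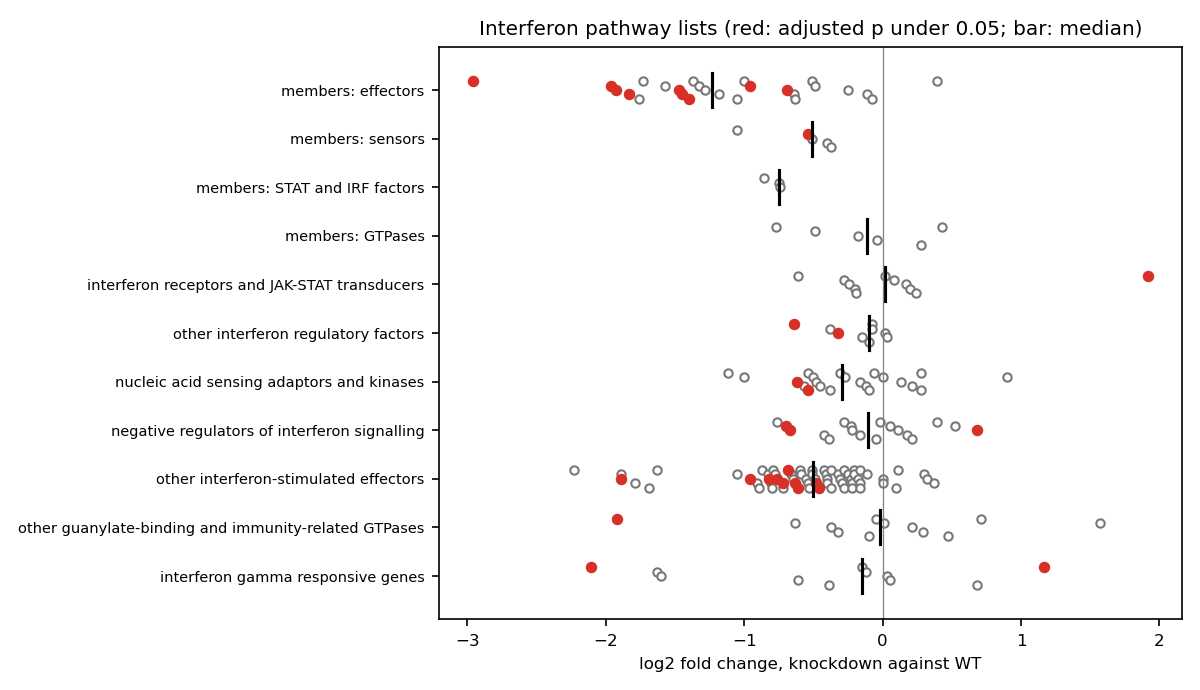
Log2 fold change of every tested gene in the 4 member classes and 7 further interferon lists, 1 point per gene, red where the adjusted p was under 0.05, with the median as a black bar. The effectors lie furthest to the left, with a median of -1.23, followed by the STAT and IRF factors at -0.75, the sensors at -0.51 and the other interferon-stimulated effectors at -0.50, while the medians of the GTPase lists and the receptor list lie near 0.

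Markers of cells that make or carry interferon were measured beside these results. Of 9 plasmacytoid dendritic cell markers tested, 0 passed by edgeR or DESeq2, and 1 was lower at an unadjusted p under 0.05 (all genes 15.7%). The log2 fold change was below 0 for 7 of them and above 0 for 2. In 3 of the 11 listed every knockdown library was below WT (all genes 21.3%), and in 8 the groups overlapped. The list summed to 8.81, 8.38 and 4.86 FPKM in the knockdown and 9.58, 8.66 and 8.96 FPKM in WT, with overlap. A large part of most of these sums was Cox6a2, 1 of the 2 above 0, at 4.58, 3.73 and 0.63 FPKM against 1.75, 2.55 and 2.33 FPKM. Siglech, a marker of these cells, reached at most 0.211 FPKM and had no count in knockdown library 3. Every knockdown library of Siglech was below WT, but it did not pass (-1.97 ± 1.0, adjusted p = 0.251). Of 12 monocyte markers, Ccr2 and Nr4a1 fell by edgeR (all genes 6.46%), each call being lost without 5 of the 6 libraries in turn. DESeq2 called 5 lower (all genes 12.3%) and 1 higher (all genes 10.6%). The 12 markers summed to 49.4, 45.3 and 41.9 FPKM against 64.2, 58.4 and 58.4 FPKM, with every knockdown library below WT. Of 7 B cell markers tested, all 7 had a log2 fold change below 0. Ighm alone fell by edgeR (all genes 6.46%), and 1 was called lower by DESeq2 (all genes 12.3%). The sum was 16.0, 32.5 and 10.7 FPKM against 57.8, 60.5 and 73.4 FPKM. Most of that sum was Ighm, at 13.9, 25.7 and 9.51 FPKM against 47.8, 54.0 and 66.7 FPKM. In 3 of the 8 markers listed every knockdown library was below WT (all genes 21.3%), and in 5 the groups overlapped. The Ighm call was lost without knockdown library 1 or WT library 2 or 3. Of 11 neutrophil markers, Ltf fell and Mpo rose by edgeR (all genes 6.46% and 4.87%). DESeq2 called 1 lower and 2 higher (all genes 12.3% and 10.6%). The sums of the neutrophil markers overlapped, as did those of the conventional dendritic cell and fibroblast markers. Among T and NK cell markers Cd3g, Gzma and Prf1 were at 0 in every library. The median log2 fold change was -1.43 for the B cell, -1.2 for the macrophage, -0.82 for the monocyte and -0.76 for the plasmacytoid dendritic cell markers. It was -0.16 for the neutrophil, -0.13 for the fibroblast, 0.04 for the conventional dendritic cell and 0.34 for the T and NK cell markers. Over the 40 members it was -0.76, and over the effectors -1.23. The part of these markers, and of the macrophage markers, in the levels of the interferon-stimulated genes was not tested.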

How the data were processed

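Paired-end RNA-seq libraries, 3 per group, were grouped by the genotype label. The authors deposited 1 table with a count and an FPKM column per library, per the file headers. The counts are whole-number estimated counts made by the authors, 2.95 to 3.01 per read pair kept, and were used as they are; a count of 0 has the FPKM 0.0001. Per the deposited trimming logs, cutadapt 1.9 removed adapters (overlap 5, minimum length 100). The submitters' processing notes give GRCm38 (mm10) as the build. For the aligner, the counter and the annotation, nothing is given in the sources used here.

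Counts were tested with edgeR 4.0.16 in R 4.3.3 (filterByExpr with a minimum count of 10, TMM scaling, glmQLFit and glmQLFTest, Benjamini-Hochberg over 18164 genes, threshold 0.05). All 40 members passed the filter. Fold changes are log2 with standard errors from the quasi-likelihood F; FPKM served for levels. DESeq2 1.42.0 and limma 3.58.1 were alternatives. The test was checked on simulated counts, which held no outlying library, so the check does not cover one. Transcripts of GENCODE M21 gave shared sequence. Members and lists were chosen with earlier results of these data known. Members past the threshold were named, and in each class the most abundant, the 2 with the largest change and any higher one with an unadjusted p under 0.05 among the rest, as well as pathway genes past the threshold, up to 4 per list; further members are given by value. Same-numbered libraries were not paired. The values of 1 listed pathway gene are not reported here.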

Additional observations from a re-analysis of the deposited data

How the results depend on the processing

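The count of 10 members lower (1173 of 18164 genes) became 23 with DESeq2 (2240 genes) and 6 with the replicate block (424 genes). The correlations of same-numbered libraries (0.05, 0.04 and -0.01) do not support that block. Knockdown library 3 correlated best with WT library 2, at 0.03. With single libraries left out, 0 to 9 members were lower, and 0 to 1389 genes in the whole table. The count over all genes thus moved with the setting too. The count of members higher was 0 to 1. With RLE scaling 10 members were lower (1205 of 18164 genes). Limma gave 10 and 11 of the 34 members above a mean of 1 FPKM (1083 and 1185 of 11516 genes). With no count filter 7 were lower (695 of 28119 genes). A minimum count of 50 and counts divided by 4 each gave 15 (1284 of 14187 and 1309 of 14666 genes). The median log2 fold change stayed between -1.0 and -0.60 over all of these, and was -0.84 with the block. DESeq2 with single libraries left out, chosen after seeing the data, called 12 to 30 members lower and 0 to 2 higher. The 12 came without WT library 2 (all genes 7.49%), and the shares over all genes in the other fits are not given here. Where WT library 2 was left out, edgeR called 0 genes in the whole table; the cause was not tested. Motif matches were searched only in the 31 windows found.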
